A study of Mus musculus with 4 samples.

Results

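The HoxC cluster holds 9 genes, Hoxc4, Hoxc5, Hoxc6, Hoxc8, Hoxc9, Hoxc10, Hoxc11, Hoxc12 and Hoxc13, of the 21938 protein-coding genes annotated in the mouse. Its open chromatin was taken from ATAC-seq peaks that overlapped the body of any of these genes, or the 5 kb on either side of it, in the GENCODE M21 annotation. This rule found 31 peaks of the 75101 in 4 peak lists, and they merged into 17 of 44692 regions. The genes lie on chromosome 15 (mm10), all on the plus strand, in the order Hoxc13 to Hoxc4. The question put to the lists was whether the stretch from Hoxc4 to Hoxc8 and the stretch from Hoxc9 to Hoxc13 differed in their peaks, and whether either differed between genotypes.

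The tissue was the posterior forelimb bud of Swiss Webster mouse embryos at E10.5 (35 somites), the part of the bud that makes and receives Sonic Hedgehog (SHH). A pair of WT libraries was compared with a pair of Shh-/- libraries, the latter from embryos with the null allele Shh tm1amc, which make no SHH ligand in any tissue. Each of the 4 libraries came from the forelimb pair of a single embryo, from 5000 cells that were amplified for 18 PCR cycles. ATAC-seq maps the places where the transposase Tn5 can enter DNA. The tissue was not sorted, so the share of cells with an open site and the openness of that site in each cell cannot be told apart.

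Hox genes encode homeodomain transcription factors that give cells their position along the body. Genes near the 3′ end of a cluster are generally opened and transcribed earlier and further forward, and genes near the 5′ end later and further back. In the HoxC cluster, Hoxc4 to Hoxc8 act at neck, forelimb and upper trunk levels, Hoxc9 to Hoxc11 at lower trunk and hindlimb levels, and Hoxc12 and Hoxc13 in the caudal body, with Hoxc13 also needed in hair and nails.

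The lists differed greatly in length before any gene was considered. WT replicates 1 and 2 had 39080 and 11973 peaks, and Shh-/- replicates 1 and 2 had 5589 and 18459. A list gives calls and scores but no reads, so the depth of each library is unknown, and a gene without a peak was not called rather than shown to be closed. Peaks were therefore ranked within their own list by the deposited score, and are given by a rank percentile that is 100 for the highest score of the list, with tied scores at their midpoint. Over all protein-coding genes, 62.1%, 40.5%, 18.1% and 52.6% had a peak near a start site in WT replicates 1 and 2 and Shh-/- replicates 1 and 2. Of 9 limb mesenchyme genes, 9, 6, 5 and 8 had such a peak in the same order, while the forelimb gene Tbx5 had one only in WT replicate 1. Of 3 trunk and caudal genes, 3, 1, 0 and 1 had such a peak, of 4 neural genes 4, 0, 0 and 1, of 4 genes of migrating muscle progenitors 3, 1, 0 and 3, of 6 blood genes 2, 1, 0 and 1, of 6 ectoderm genes 2, 0, 0 and 2, and of 5 endothelial genes 1, 0, 0 and 1. Of the 3 hindlimb genes, Pitx1 had one in WT replicate 1 alone, Tbx4 in WT replicate 1 and Shh-/- replicate 2, and Isl1 in all libraries but Shh-/- replicate 1.

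The sequences below are those of the places on which the calls turned. Each is the plus strand of mm10, 5′ to 3′. The Hoxc5 sequence, chr15:103014358-103014657, lay in a peak of all 4 libraries, and its capitals are the end of coding exon 1 of Hoxc5. The Hoxc6 sequence, chr15:102999571-102999770, lies far upstream of the coding start, and its capitals are the 28 bases that were in a peak of every library. The Hoxc9 sequence, chr15:102975813-102975977, was in a peak of both WT libraries and of neither Shh-/- library. The Hoxc13 sequence, chr15:102920809-102920955, ends 148 bp before the Hoxc13 start and was in the only peaks called near Hoxc11, Hoxc12 or Hoxc13.
Hoxc5: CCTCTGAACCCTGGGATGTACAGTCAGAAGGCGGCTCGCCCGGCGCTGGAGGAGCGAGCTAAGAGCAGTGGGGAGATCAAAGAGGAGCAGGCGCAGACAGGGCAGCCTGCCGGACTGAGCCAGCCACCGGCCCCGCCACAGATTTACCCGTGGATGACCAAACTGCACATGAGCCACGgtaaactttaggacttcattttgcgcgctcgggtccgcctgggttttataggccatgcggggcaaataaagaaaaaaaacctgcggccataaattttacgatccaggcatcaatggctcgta
Hoxc6 upstream: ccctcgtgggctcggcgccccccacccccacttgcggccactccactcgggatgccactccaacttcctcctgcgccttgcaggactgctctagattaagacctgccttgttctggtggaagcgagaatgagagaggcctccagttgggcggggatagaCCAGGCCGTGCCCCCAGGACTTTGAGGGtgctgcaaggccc
Hoxc9: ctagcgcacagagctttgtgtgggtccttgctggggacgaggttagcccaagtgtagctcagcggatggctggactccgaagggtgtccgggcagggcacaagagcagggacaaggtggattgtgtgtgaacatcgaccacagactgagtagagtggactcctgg
Hoxc13: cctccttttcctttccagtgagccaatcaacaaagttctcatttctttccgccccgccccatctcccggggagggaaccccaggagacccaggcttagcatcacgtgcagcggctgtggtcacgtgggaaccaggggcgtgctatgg

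The GC content of these sequences was 57% at Hoxc5, 64.5% at Hoxc6, 58.8% at Hoxc9 and 59.9% at Hoxc13, with 19, 9, 6 and 7 CpG dinucleotides. In 200 bp around the summit of each of the 17 HoxC regions, GC content had a median of 54%, from 37.5% to 78%, beside 55.5% in all 44692 regions. On both strands of these windows, 0 of 17 held the GLI consensus TGGGTGGTC with at most 1 mismatch, 0 of 17 held the HOX-PBX sequence TGATTNAT, and 0 of 17 held the core of the CTCF site, CCANNAG followed, after any pair of bases, by GGC. These sequences were themselves rare among all regions, at 5.62%, 2.00% and 2.41%.

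HoxC peaks were called in every library, with 16 and 4 in WT replicates 1 and 2 and 5 and 6 in Shh-/- replicates 1 and 2. The WT libraries had the highest and the lowest count, and the Shh-/- libraries lay between them. The means were 10 ± 8.49 (SD, n = 2) in WT and 5.5 ± 0.707 (SD, n = 2) in Shh-/-, so Shh-/- minus WT was -4.5 peaks, a smaller difference than that between the WT libraries (exact permutation test, two-sided, p = 1). With 2 libraries against 2, this test cannot give a p-value below 0.333. For every 10000 peaks of the list, the cluster had 4.09 and 3.34 in the WT libraries and 8.95 and 3.25 in the Shh-/- libraries. WT was lower by this measure, at 3.72 ± 0.533 against 6.10 ± 4.03 (SD, n = 2 each; exact permutation test, two-sided, p = 1). That order rested on Shh-/- replicate 1, and without it Shh-/- minus WT was -0.467.

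**Figure D1:**
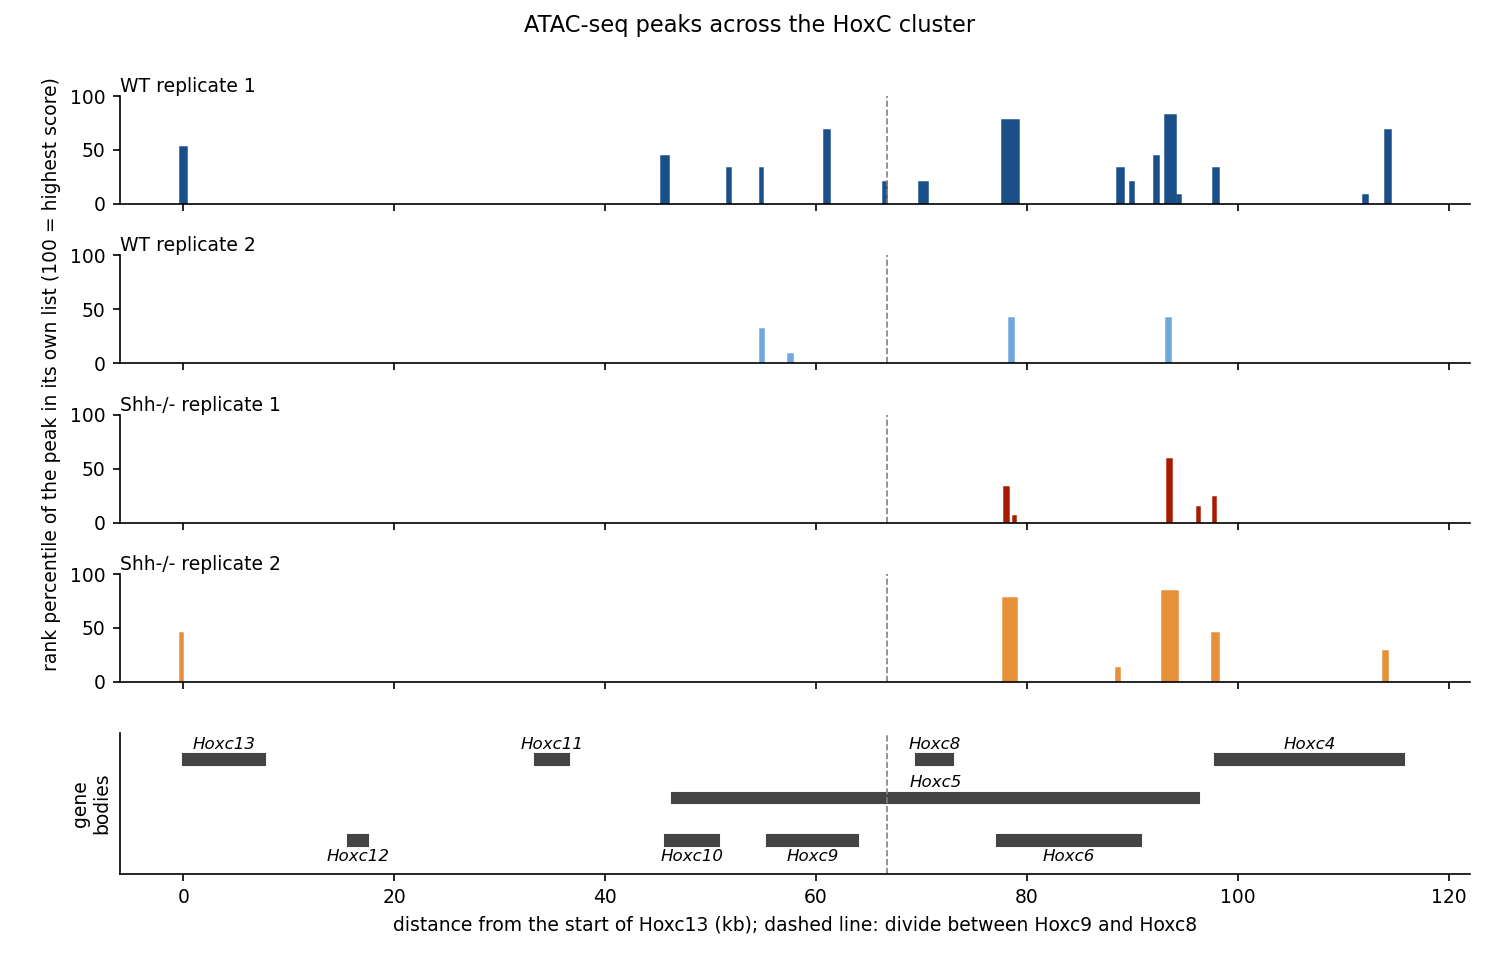
Peaks across the HoxC cluster in the 4 libraries, with the distance from the start of Hoxc13 in kb on the horizontal axis, the rank percentile of each peak in its own list as the height of its bar, and the gene bodies at the bottom. The tallest bars lie to the right of the dashed divide, over Hoxc6 and Hoxc5, and no library has a bar from just after the Hoxc13 start to the start of Hoxc10.

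Within 5 kb of a gene body, 7, 5, 4 and 5 of the 9 members had a peak in WT replicates 1 and 2 and Shh-/- replicates 1 and 2. Over all protein-coding genes this share was 69.1%, 47.6%, 24% and 59.2%. In the narrower window from 2 kb before to 1 kb after an annotated start site, 7, 3, 3 and 4 of the 9 members had a peak, where the background was 62.1%, 40.5%, 18.1% and 52.6% of genes. Shh-/- minus WT in the mean number of members called there was -1.5 (exact permutation test, two-sided, n = 2 per genotype, p = 1). The 4 genes Hoxc4 to Hoxc8 made up 4, 2, 3 and 3 of these calls, and the 5 genes Hoxc9 to Hoxc13 made up 3, 1, 0 and 1.

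**Figure D2:**
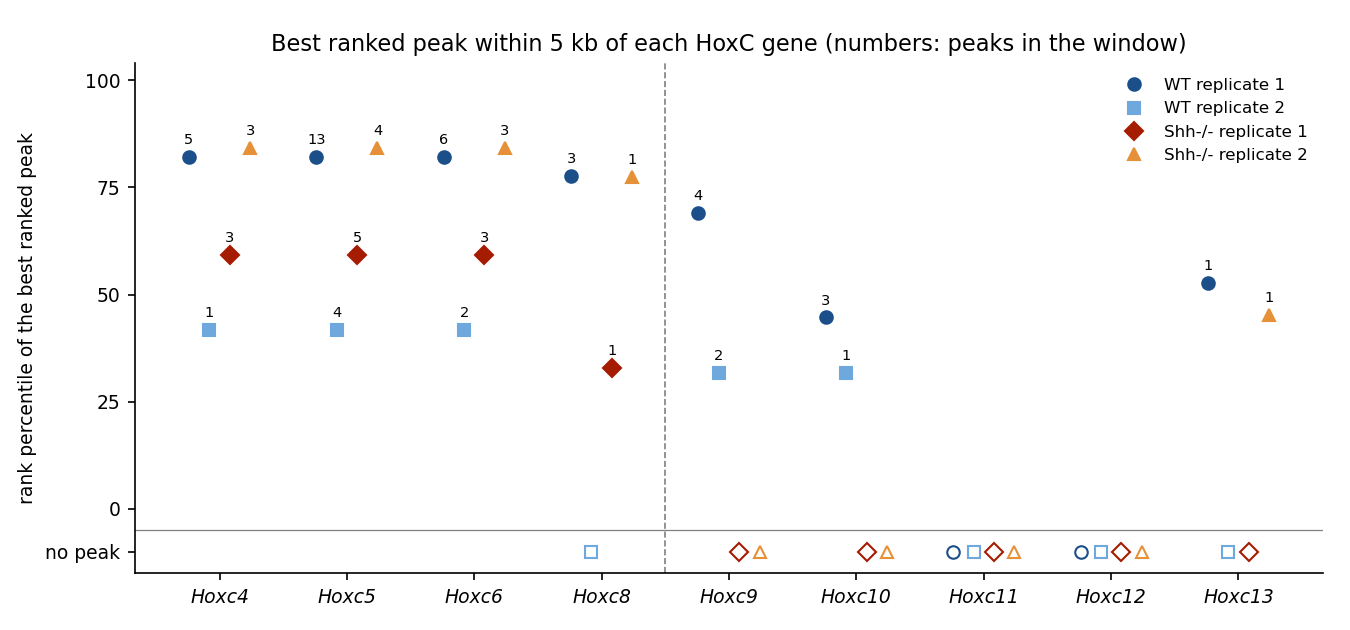
The rank percentile of the best ranked peak within 5 kb of each HoxC gene in each library, with the number of peaks in that window above each point and open symbols where no peak was called. Hoxc4, Hoxc5 and Hoxc6 have a peak in all 4 libraries, Hoxc11 and Hoxc12 in none, and neighbouring genes share points because their windows overlap.

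Hoxc5, which encodes a homeodomain factor of neck and forelimb levels, had the best ranked peak of the cluster in 3 libraries, and in WT replicate 2 it shared that place with Hoxc6. This peak was at chr15:103014197-103015099 in WT replicate 1, with score 158, rank 6788 and percentile 82.2. In WT replicate 2 it was at chr15:103014269-103014659, with score 41, rank 6457 and percentile 41.7. In Shh-/- replicate 1 it was at chr15:103014358-103014758, with score 89, rank 2138 and percentile 59.3. In Shh-/- replicate 2 it was at chr15:103013933-103015332, with score 264, rank 2848 and percentile 84.1. All 4 summits lay after the start site of the coding transcript, Hoxc5-201, by 711, 545, 768 and 647 bp in the same order. In 3 libraries the summit was in coding exon 1 and in Shh-/- replicate 1 in the following intron. The 4 peaks shared 302 bp across the end of this exon, shown above, and none of them held the start site itself. WT replicate 1 had a further peak of percentile 8.24 in the same region and another of percentile 44.7 before the start, at chr15:103013097-103013511. Shh-/- replicate 1 alone had a peak of percentile 14.6 near the end of the gene, at chr15:103017231-103017435.

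The gene for the microRNA miR-615 (chr15:103014910-103015001) lies in Hoxc5, inside the region merged from these peaks (chr15:103013933-103015610). It was inside a peak in WT replicate 1 and Shh-/- replicate 2, and 251 bp and 152 bp from a peak in WT replicate 2 and Shh-/- replicate 1. The gene for miR-196a-2 (chr15:102973350-102973434), between Hoxc10 and Hoxc9, makes a microRNA known to repress Hox messenger RNAs. It was in no peak, and the nearest was 415 bp away in WT replicate 1, 2379 bp in WT replicate 2, and 25442 bp and 25368 bp in Shh-/- replicates 1 and 2. Their mature forms, from RefSeq (GRCm38.p6), are shown with the seed, bases 2 to 8, in capitals, and the 4 seeds differ from one another.
miR-615-5p: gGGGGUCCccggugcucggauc
miR-615-3p: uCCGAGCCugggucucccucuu
miR-196a-5p: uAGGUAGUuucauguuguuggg
miR-196a-2-3p: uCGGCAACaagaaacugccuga

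Hoxc6, a widely used marker of forelimb and upper trunk level, had the other region called in every library. It was a single peak of 1534 bp at chr15:102998715-103000248 in WT replicate 1 (percentile 77.7) and of 1289 bp at chr15:102998802-103000090 in Shh-/- replicate 2 (percentile 77.4). In WT replicate 2 it was a peak of 325 bp at chr15:102999433-102999757 (percentile 41.7). In Shh-/- replicate 1 it was split in 2, at chr15:102998876-102999342 (percentile 32.9) and chr15:102999730-102999978 (percentile 6.01). The longer peaks were thus in WT replicate 1 and Shh-/- replicate 2, the libraries with the longest lists. The summits lay between 9672 and 10517 bp before the start site of the coding transcript, Hoxc6-201, in an intron of the noncoding transcript Hoxc6-202 and before the start of the noncoding Hoxc6-203. At the coding start itself only Shh-/- replicate 2 had a peak (chr15:103009530-103009808, percentile 12.8), and in WT replicate 1 a peak began 90 bp after it (chr15:103009663-103010247, percentile 33.7).

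The Hoxc5 and Hoxc6 regions were 2 of 17 called in all 4 libraries, where 7.97% of all 44692 regions were. Of the 3562 such regions in the genome, 81.3% held the start site of a coding transcript, and neither of these did. This feature was looked at after the positions were seen. In rank order both stood lower than most of their kind. The median percentile of regions called in all 4 libraries was 94.9, 81.4, 63.8 and 88.6 in WT replicates 1 and 2 and Shh-/- replicates 1 and 2. Both HoxC regions were below these medians in every library.

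Both regions also had a better rank in each Shh-/- list than in either WT list. For Hoxc6, the ranks were 8466 and 6457 in WT and 3521 and 4035 in Shh-/-. Of the 3562 regions called in all libraries, 20.2% had this order. Since Shh-/- replicate 1 holds only 5589 peaks, no rank in it could be as high as those in the WT lists, and by percentile the genotypes overlapped at both regions.

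**Figure D3:**
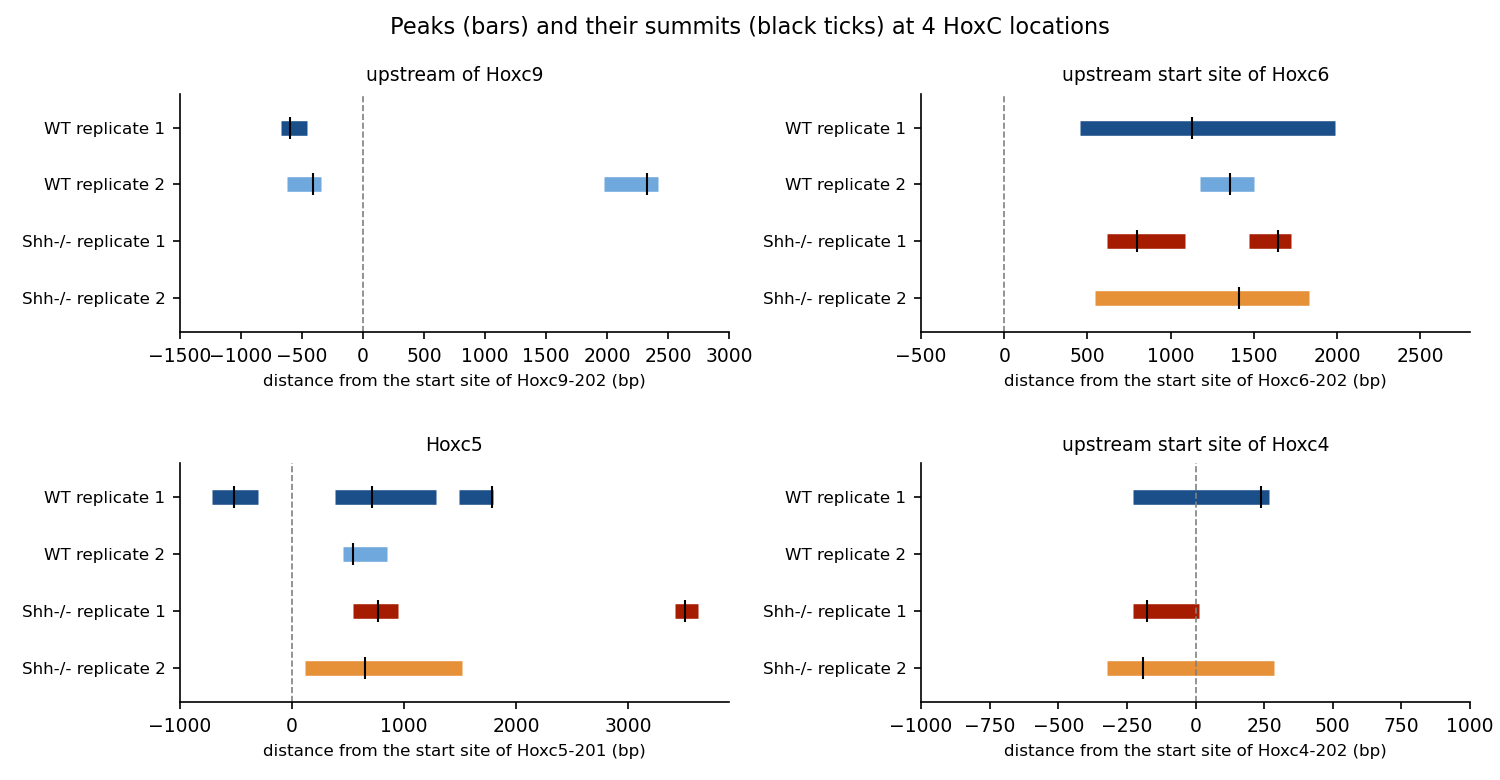
Peaks (bars) and summits (black ticks) of the 4 libraries upstream of Hoxc9, at the upstream start site of Hoxc6, at Hoxc5 and at the upstream start site of Hoxc4, each against the distance in bp from a start site (dashed line). At Hoxc5 and upstream of Hoxc6, the regions called in all libraries lie after the start sites. WT replicate 1 alone has a further bar before the Hoxc5 start. The Hoxc4 bars cover their start site in 3 libraries, and the bars before Hoxc9 are in the WT libraries only.

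Hoxc4, the most 3′ gene of the cluster (chr15:103018934-103036852), was the member with a peak over a coding start site in most libraries. Its upstream start site, of transcript Hoxc4-202, lay inside a peak in WT replicate 1 (chr15:103018706-103019202, percentile 33.7), Shh-/- replicate 1 (chr15:103018706-103018947, percentile 24.0) and Shh-/- replicate 2 (chr15:103018613-103019220, percentile 45.2). In WT replicate 2 the nearest peak was 4275 bp away. Near the downstream start site, of Hoxc4-201, WT replicate 1 had a peak at chr15:103035054-103035560 (percentile 68.9) and Shh-/- replicate 2 at chr15:103034873-103035267 (percentile 28.9), over the coding exons.

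Hoxc8, a factor of forelimb and upper trunk level and the last gene of its stretch (chr15:102990607-102994111), had a peak in its body in WT replicate 1 alone, at chr15:102990818-102991583 with percentile 20.5. The other libraries had none nearer than 8826, 8269 and 8195 bp to its start in WT replicate 2 and Shh-/- replicates 1 and 2. Counts within 5 kb of Hoxc8, of 3, 0, 1 and 1, come in part from the upstream Hoxc6 region, which lies at the edge of that window.

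Beyond the divide, Hoxc9 (chr15:102976439-102985099), a factor that sets trunk level identity in motor neurons, had the only region that followed genotype in the full lists. WT replicate 1 had a peak of 210 bp at chr15:102975768-102975977, with score 32 and percentile 33.7, and WT replicate 2 one of 281 bp at chr15:102975813-102976093, with score 34 and percentile 31.7. Their summits lay 596 and 412 bp before the start of Hoxc9-202. In Shh-/- replicates 1 and 2 the nearest peaks to that start were 22437 and 22363 bp away. Such WT-specific regions, called in both WT libraries and in neither Shh-/- library, were 1 of 17 in the cluster and 2.09% of all regions. The reverse pattern was found in 0 of 17, and in 0.396% of all regions. Neither peak was among the 5589 best ranked of its list, so the region was called in no library when lists were limited to the length of the shortest. At that limit the WT libraries had no HoxC peak. The reverse pattern was then found in 2 of the 4 HoxC regions left, at Hoxc5 and Hoxc6, and in 304 of all 9282 regions. Every marker list given above was called at least as often in WT replicate 1 as in any other library, and so was the share of all genes with a peak near a start site. WT replicate 2, which had the Hoxc9 region, held fewer peaks than Shh-/- replicate 2, which did not (11973 against 18459). The part of the list lengths in these results was not tested.

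The remaining peaks at Hoxc9 were each in 1 library. WT replicate 1 had one over the coding exon, at chr15:102981897-102982320, whose percentile of 68.9 was the highest of the posterior genes in any library. WT replicate 2 had one of percentile 8.95 in an intron, at chr15:102978415-102978854. WT replicate 1 had a further one between Hoxc9 and Hoxc8, at chr15:102987422-102987748 (percentile 20.5).

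Hoxc10 (chr15:102966796-102971893), a gene of hindlimb and lumbar level, had its start site in a peak in WT replicate 1 alone, at chr15:102966394-102967075 with percentile 44.7. The same library had a peak of percentile 33.7 after the gene, at chr15:102972637-102972935. In WT replicate 2 and Shh-/- replicates 1 and 2 the nearest peaks to the start were 9017, 32080 and 32006 bp away.

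Hoxc11 (chr15:102954427-102957708), expressed with Hoxc10 in the hindlimb, and Hoxc12 (chr15:102936757-102938609) had no peak within 5 kb in any library. The closest call to the Hoxc11 start was 11967 bp away, in WT replicate 1, and the closest to the Hoxc12 start 15368 bp, in the same library. Hotair, a long noncoding RNA gene transcribed from the opposite strand between them (chr15:102944062-102947730), was also without a peak, with the nearest 18664 bp away.

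Hoxc13 (chr15:102921103-102928814), the most 5′ gene, was called in 1 library of each genotype. In WT replicate 1 the peak at chr15:102920809-102921389 covered the start site and had percentile 52.8. In Shh-/- replicate 2 it was at chr15:102920751-102920955, with percentile 45.2, and ended 148 bp before the start. These are the libraries with the longest lists.

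To compare the stretches by area rather than by gene, the cluster was divided midway between Hoxc9 and Hoxc8. This was needed because a noncoding transcript of Hoxc5, Hoxc5-202, starts 647 bp after the start of Hoxc10 and gives the Hoxc5 body a length of 49987 bp across the posterior genes. The stretch from Hoxc4 to Hoxc8 had 53999 bp and that from Hoxc9 to Hoxc13 had 65934 bp. The former held 10, 2, 5 and 5 peaks in WT replicates 1 and 2 and Shh-/- replicates 1 and 2, and the latter 6, 2, 0 and 1.

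Divided in this way, the Hoxc4 to Hoxc8 stretch was the denser in every library. It had 1.85, 0.370, 0.926 and 0.926 peaks per 10 kb, and the Hoxc9 to Hoxc13 stretch 0.910, 0.303, 0 and 0.152. The difference was largest in WT replicate 1, nearly as large in Shh-/- replicate 1, and close to 0 in WT replicate 2, with a mean of 0.68 ± 0.414 peaks per 10 kb (SD, n = 4; 4 of 4 libraries in the same direction; exact sign-flip permutation test, two-sided, p = 0.125). This is the smallest p-value that 4 libraries allow. In WT replicate 2 the direction rested on the division, and with each peak given to the gene of the nearest start site its difference was -0.032 (p = 0.25 over the 4 libraries, exact sign-flip permutation test). For comparison, the upper quartile over all 21938 genes with their flanks was 0.758, 0.319, 0 and 0.439 peaks per 10 kb. The Hoxc4 to Hoxc8 stretch was above it in all 4 libraries, and the Hoxc9 to Hoxc13 stretch in WT replicate 1 only. The quartile is over windows of single genes, whereas a stretch pools several. In Shh-/- replicate 1 it was 0, so any stretch with a peak was above it.

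The share of bases in peaks gave the same direction. It was 11.4%, 1.33%, 2.90% and 7.35% from Hoxc4 to Hoxc8 and 3.83%, 1.09%, 0% and 0.311% from Hoxc9 to Hoxc13. The mean difference was 4.43 ± 3.49 percentage points (SD, n = 4; 4 of 4 libraries; exact sign-flip permutation test, two-sided, p = 0.125). The rank of the peaks showed no such order. Their median percentile was 33.7, 41.7, 24.0 and 45.2 from Hoxc4 to Hoxc8, and 39.2, 20.3 and 45.2 from Hoxc9 to Hoxc13 in the 3 libraries with a peak there. The mean difference over those 3 libraries, with Shh-/- replicate 1 left out for want of a peak, was 5.30 ± 14.2 (SD, n = 3; exact sign-flip permutation test, two-sided, p = 1; smallest possible 0.25), and without WT replicate 2 it turned to -2.74.

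**Figure D4:**
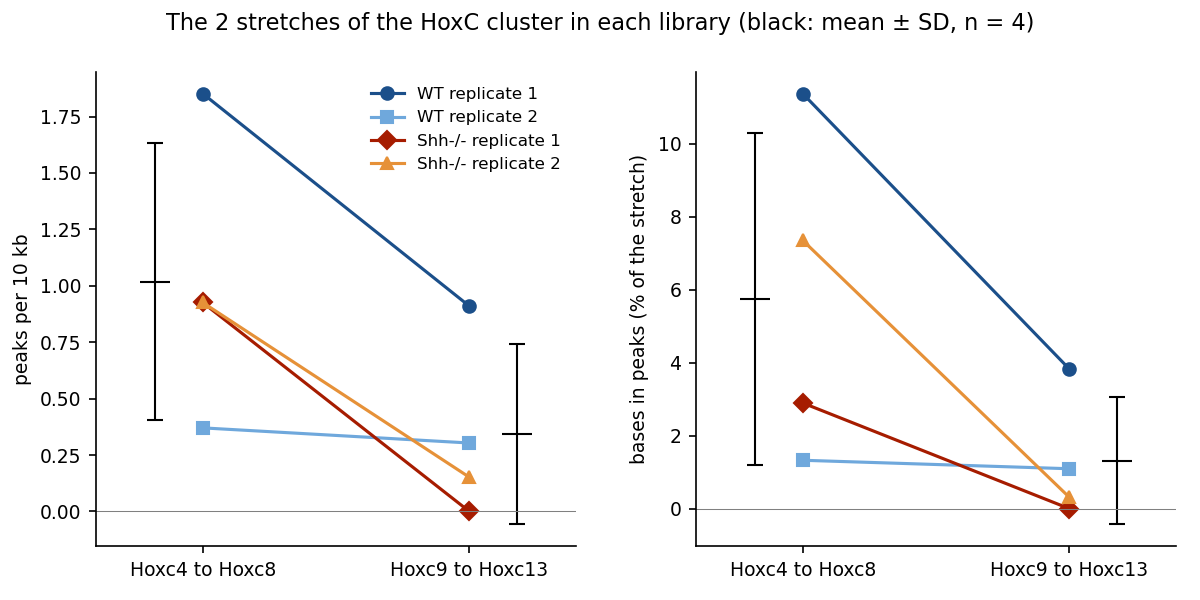
Peaks per 10 kb (left) and percent of bases in peaks (right) in the Hoxc4 to Hoxc8 and the Hoxc9 to Hoxc13 stretch, with a line for each library and the mean ± SD over the 4 libraries in black. All 8 lines fall from left to right, and the lines of WT replicate 2 are nearly flat, with differences of 0.0670 peaks per 10 kb and 0.232 percentage points.

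The difference between the stretches did not separate the genotypes. It was 0.942 and 0.0670 peaks per 10 kb in WT and 0.926 and 0.774 in Shh-/-, so the WT libraries lay on both sides of the Shh-/- libraries. The means were 0.504 ± 0.619 and 0.850 ± 0.107 (SD, n = 2 each; exact permutation test, two-sided, p = 1). The base composition of the whole stretches is given beside these values, and its relation to the peaks was not tested. The Hoxc9 to Hoxc13 stretch had 24.0 CpG per kb and a GC content of 49.8%, and the Hoxc4 to Hoxc8 stretch 18.6 CpG per kb and 48.6%.

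When lists were limited to 5589 peaks by score, the length of the shortest (equal list size), the HoxC peaks left were 0 in both WT libraries and 5 and 2 in Shh-/- replicates 1 and 2. All 7 were in the Hoxc4 to Hoxc8 stretch. The direction between genotypes turned, to 3.5 more peaks in Shh-/- (exact permutation test, two-sided, n = 2 per genotype, p = 0.333, the smallest possible). Members called near a start site were then 0, 0, 3 and 2 of 9, where the background was 26.1%, 26%, 18.1% and 25.7% of genes. The 2 in Shh-/- replicate 2 were Hoxc5 and Hoxc6, through the regions called in every library. At this limit, 3, 0, 5 and 4 of the 9 limb mesenchyme genes had a peak near a start site. This list keeps all of Shh-/- replicate 1 and the top of the other lists, down to a score of 19 in Shh-/- replicate 1 and of 209, 49 and 144 in WT replicates 1 and 2 and Shh-/- replicate 2. Among peaks with a score of at least 50, the cluster had 4, 0, 2 and 4, of which 3, 0, 2 and 3 were in the Hoxc4 to Hoxc8 stretch.

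The HoxA, HoxB and HoxD clusters were measured in the same way to see whether the contrast between stretches was particular to HoxC. In HoxD, whose 5′ genes are known targets of SHH in the limb bud, genes 1 to 8 minus genes 9 to 13 gave -8.57, -3.48, 0.415 and 0.784 percentage points of bases in peaks. In HoxC the same difference was 7.55, 0.232, 2.90 and 7.04. HoxC was the higher in 4 of 4 libraries, by 7.14 ± 6.19 percentage points (SD, n = 4; exact sign-flip permutation test, two-sided, p = 0.125; Benjamini-Hochberg adjusted over 15 comparisons with the other clusters, 0.562). From genes 9 to 13 alone, the mean share of bases in peaks was 1.31% in HoxC, 5.83% in HoxD and 5.92% in HoxA, with HoxC the lower of each pair in 3 of 4 libraries (exact sign-flip permutation tests, two-sided, n = 4, p = 0.25 each, adjusted 0.562). In HoxB it was 2.29%, with HoxC the lower in 1 of 4 libraries (exact sign-flip permutation test, two-sided, n = 4, p = 1, adjusted 1). From genes 1 to 8 alone, the mean share was 5.74% in HoxC, 3.11% in HoxD, 6.41% in HoxA and 3.48% in HoxB. HoxC was the lower of these pairs in 0, 3 and 1 of 4 libraries (exact sign-flip permutation tests, two-sided, n = 4, p = 0.125, 0.625 and 0.25, adjusted 0.562, 0.781 and 0.562). The contrast between stretches was higher in HoxC than in HoxA by 3.94 ± 3.996 and than in HoxB by 3.23 ± 5.21 percentage points (SD, n = 4), in 3 of 4 libraries each (exact sign-flip permutation tests, two-sided, p = 0.25 and 0.375, adjusted 0.562 each). None of the 15 comparisons passed 0.05 after adjustment, and 4 libraries cannot reach it before adjustment.

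**Figure D5:**
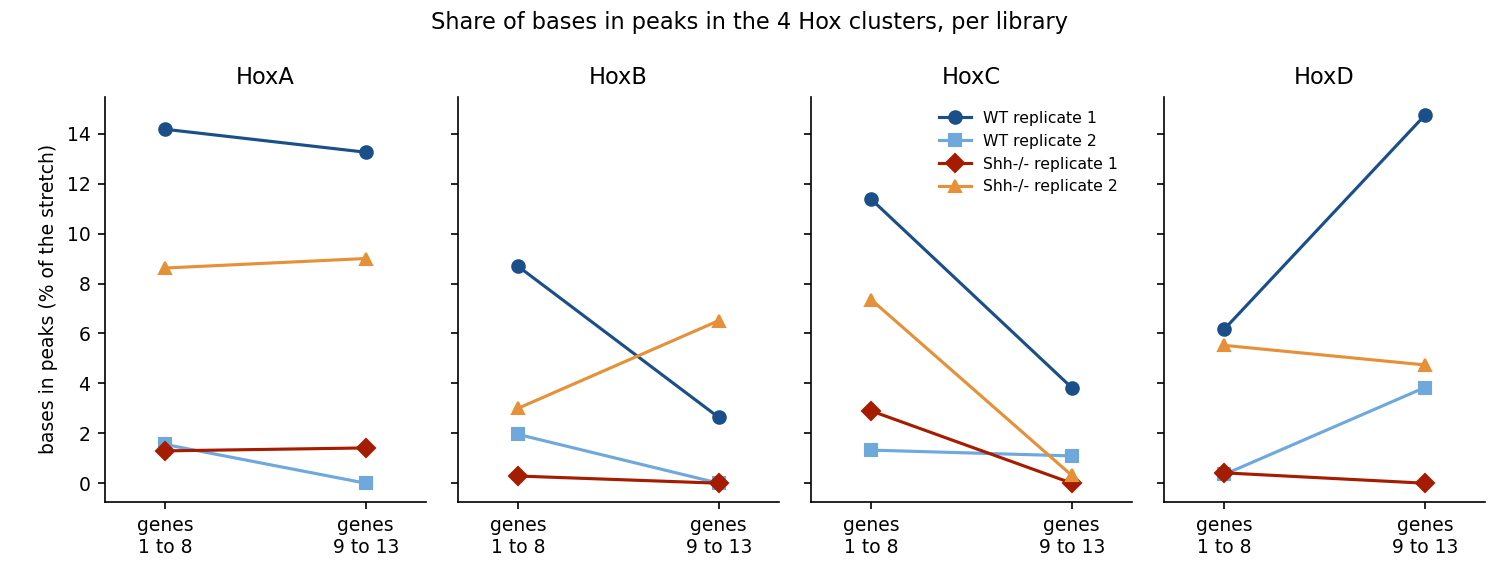
Percent of bases in peaks in the stretch of genes 1 to 8 and the stretch of genes 9 to 13 of the 4 Hox clusters, with a line for each library. All 4 HoxC lines fall, by 0.232 to 7.55 percentage points, as do 3 of 4 in HoxB and the WT lines in HoxA, whereas in HoxD the WT lines rise and the Shh-/- lines fall slightly.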

How the data were processed

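ATAC-seq libraries of 2 WT and 2 Shh-/- posterior forelimb buds were grouped by their titles. Per the labels, the authors' processing named mm10, Bowtie2 2.2.5 and MACS2 2.1.0, and per the study's methods peaks were called at a q-value cutoff of 0.05 with a window of 200 bp. Read filters and any shift of reads to the Tn5 cut are not given in the sources used here. The authors deposited 1 peak list per library, not pooled, with a summit and a score per peak. By the caller's format this score is 10 times the highest −log10 q-value, which the files do not state, and the other statistics columns held 0. Without read counts, the study's limma fit was not repeated. The members, lists and tests were chosen with earlier results of these data known. All 9 members were named, and of other genes only marker genes and the clusters' counts.

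Peaks were joined to GENCODE M21 (comprehensive set) with Python 3.11.15, pandas 2.3.3, numpy 2.4.6, scipy 1.17.1 and pysam 0.24.0. Peaks sharing 1 bp or more were joined as regions. Rank was 1 plus the number of higher scores. Genotypes were compared by exact permutation of labels, and stretches by exact sign flips within libraries. Counting was tested on simulated lists. Of 9 members, Hoxc4 alone had a RefSeq promoter sequence, which lies in a UTR and is not printed. Each list is 1 embryo, and its number of peaks limits the precision.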

Additional observations from a re-analysis of the deposited data

Results flagged for a closer look

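Within libraries, the difference between genes 1 to 8 and genes 9 to 13 was examined in the 4 Hox clusters by 2 measures, and in 3 of these 8 cases both WT libraries went one way and both Shh-/- libraries the other. In HoxD the WT mean was -1.21 and the Shh-/- mean 0.121 peaks per 10 kb, a difference of -1.33. Shh-/- replicates 1 and 2 gave 0.158 and 0.0847, and Shh-/- replicate 1 had only 1 HoxD peak. For HoxD bases in peaks the means were -6.03 and 0.599 percentage points, a difference of -6.63. In HoxA the means were 1.24 and -0.25 percentage points of bases in peaks, a difference of 1.49. Shh-/- replicates 1 and 2 gave -0.119 and -0.381, and HoxA peaks per 10 kb did not split the genotypes. WT replicate 2 and Shh-/- replicate 1 had 3 HoxA peaks each. Each of the 3 cases had p = 0.333 by an exact permutation test, two-sided, with n = 2 per genotype, which is the smallest p-value possible. Neither HoxC measure split the genotypes in this way, with differences of -0.35 peaks per 10 kb and -1.08 percentage points (exact permutation tests, p = 1).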

How the results depend on the processing

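The mean excess of the Hoxc4 to Hoxc8 stretch kept its direction in 10 of 10 alternatives for peaks per 10 kb and in 10 of 10 for bases in peaks. Some of these could not have turned it. Every library had a positive difference, so leaving 1 library out could only change the size of the mean. Asking for the summit in the window left every value as it was. WT replicate 2 alone turned, to -0.032 peaks per 10 kb and -0.124 percentage points with peaks divided by the nearest start site, and to -0.146 percentage points with bodies alone. With 1 library left out it ranged from 0.589 to 0.881 peaks per 10 kb and from 3.39 to 5.83 percentage points. It was smallest with a score of at least 50 (0.295 peaks per 10 kb) and at equal list size (1.97 percentage points), where both WT libraries had no HoxC peak. Differences between the genotypes turned under some alternatives. Shh-/- minus WT in HoxC peaks turned from -4.5 to 3.5 at equal list size and to 1 with a score of at least 50, and with 1 library left out ranged from -10.5, without WT replicate 2, to 1.5, without WT replicate 1. In members called near a start site it turned from -1.5 to 2.5 and 1.5 under these settings and ranged from -3.5, without WT replicate 2, to 0.5, without WT replicate 1. Per 10000 peaks it ranged from -0.467, without Shh-/- replicate 1, to 5.23, without Shh-/- replicate 2. The difference between stretches in median rank percentile ranged from -2.74, without WT replicate 2, to 10.7, without WT replicate 1, and equal list size gave it no value. WT minus Shh-/- in the stretch difference ranged from -0.783 to 0.0918 peaks per 10 kb, and was positive without WT replicate 2. The cause of these turns was not tested. Another 2 settings of the flank could not apply to start sites. Start sites of the GENCODE basic set, an alternative chosen after seeing the data, left the difference in members at -1.5. The counts themselves fell to 7, 2, 2 and 4 in WT replicates 1 and 2 and Shh-/- replicates 1 and 2. Hoxc6 was the member that lost its call, in WT replicate 2 and Shh-/- replicate 1. Within 500 bp of a start site the counts were 7, 2, 1 and 4, and the difference was -2. No label ties the replicate numbers to a shared litter. Taken as a replicate block, each number holds 1 library of each genotype, so the block could not change a difference of means. Those differences were -4.5 in peaks, 2.38 per 10000 peaks, -1.5 in members and -0.35 in the stretch difference. Only the p-value could differ, and within the block each had an exact permutation p = 1 (smallest possible 0.5). Scores rest on unknown depth, so a missing call sets no upper limit on accessibility.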
